A study of Mus musculus with 15 samples.

Results

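The genes described here encode the nuclear-coded part of the mitochondrial respiratory chain. They were taken by name, as the genes whose array symbol begins with Nduf, Sdha, Sdhb, Sdhc, Sdhd, Uqcr, Cox4, Cox5, Cox6, Cox7, Cox8 or Atp5, and 91 genes of the array carry such a symbol. Of these, 85 had a probe above background in 2 samples or more, taken as a detection p-value below 0.01, and they belong to the 11648 genes tested. Each gene was read from 1 probe, the one with the highest mean signal. The 85 genes comprise 34 of complex I, 3 of complex II, 6 of complex III, 15 of complex IV, 16 of complex V and 11 assembly factors, which the prefixes Ndufaf and Sdhaf bring in. No sample had a signal above background for Cox7b2, Cox8c, Ndufaf6, Ndufs1, Sdha or Uqcrfs1. They had 1 probe each, or 2 for Uqcrfs1, so the lack of signal does not show that they were not expressed. The entry Ndufs5-ps is annotated as a transcribed pseudogene and was kept because the rule takes its symbol.

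Total RNA of lungs and kidneys of BALB/c mice was measured on Illumina bead arrays, 15 arrays for 14 samples. The 5 groups were healthy lung (n = 3), lung given bleomycin into the trachea and labelled fibrotic (n = 3), lung of mice that had unilateral ureteral obstruction (UUO) (n = 3), called UUO-mouse lung here, healthy kidney (n = 3) and kidney of UUO mice, labelled fibrotic (n = 2). Bleomycin is a DNA-damaging drug that scars the lung, and UUO surgery closes a ureter so that the kidney behind it scars. The sources used here give no age, sex or time after treatment, do not say which kidney of a UUO mouse was taken, and name no vehicle or sham treatment for the healthy controls. The 3 healthy mice gave both organs, 1 UUO mouse gave both organs, and animal numbers in the titles show that the samples of a group came from separate mice. Sample numbers below are the replicate numbers of the labels, so healthy lung 1 and healthy kidney 1 are not the same mouse.

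Complexes I and II pass electrons from NADH and succinate to ubiquinone, complex III passes them to cytochrome c, and complex IV passes them to oxygen. Complexes I, III and IV pump protons across the inner membrane, and complex V, the ATP synthase, lets them flow back to make ATP. Proximal tubule cells of the kidney are packed with mitochondria and live almost wholly on this pathway, whereas much of the lung is thin epithelium, endothelium and blood. Several complex IV subunits exist as paired genes, a broadly expressed form and one used in heart and skeletal muscle, lung or testis. Nuclear respiratory factor 1 (NRF-1) and GABP, also called NRF-2, are known activators of many of these genes.

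RefSeq promoter windows, from 250 bases before to 50 bases after the gene start in build GRCm38.p6, were found for 73 of the 85 genes. The NRF-1 motif, GCGC, any base, then TGCGC, occurred on either strand in 19 of the 73, or 26.03%, and in 5.188% of all 27025 genes with a window. The GABP motif CCGGAAG occurred in 28.77% against 9.928%, and one or both of these motifs in 47.95% against 13.99%. The YY1 motif AAGATGGC was found in 15.07% against 3.19% and the ERR motif TCAAGGTCA in 2.74% against 0.4662%. The MEF2 motif, CTA, 4 bases of any kind, then TAG, which muscle genes often carry, was found in 2.74% against 4.233%, and TATAAA in 10.96% against 15.67%. A match is only a run of letters and does not show that a factor binds there.

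The 150 bases before the start of 6 genes are shown 5′ to 3′ on the gene's strand, with NRF-1 and GABP matches in capitals. Cox6a1, Sdhd, Ndufaf4 and Atp5k are shown because their levels changed with injury, and Cox7a1 and Cox8b because they are the muscle-type forms that varied among lungs.
Cox6a1, chr5:115348959-115349108, minus strand: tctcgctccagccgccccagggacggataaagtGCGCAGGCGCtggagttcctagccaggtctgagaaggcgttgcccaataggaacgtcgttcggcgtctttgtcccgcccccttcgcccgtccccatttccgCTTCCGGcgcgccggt
Sdhd, chr9:50603850-50603999, minus strand: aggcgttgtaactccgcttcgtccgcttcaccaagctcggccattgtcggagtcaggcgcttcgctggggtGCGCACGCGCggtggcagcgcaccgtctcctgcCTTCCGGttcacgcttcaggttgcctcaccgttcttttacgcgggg
Ndufaf4, chr4:24897933-24898082, plus strand: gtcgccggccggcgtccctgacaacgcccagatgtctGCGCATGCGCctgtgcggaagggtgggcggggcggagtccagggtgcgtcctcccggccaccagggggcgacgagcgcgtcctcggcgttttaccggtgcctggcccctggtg
Atp5k, chr5:108434400-108434549, minus strand: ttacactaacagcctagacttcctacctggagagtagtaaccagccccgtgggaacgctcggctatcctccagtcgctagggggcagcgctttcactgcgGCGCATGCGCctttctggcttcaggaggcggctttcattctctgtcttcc
Cox7a1, chr7:30184021-30184170, plus strand: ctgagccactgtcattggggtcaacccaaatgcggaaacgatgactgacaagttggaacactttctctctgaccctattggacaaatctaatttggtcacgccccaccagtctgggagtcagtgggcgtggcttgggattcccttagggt
Cox8b, chr7:140900447-140900596, minus strand: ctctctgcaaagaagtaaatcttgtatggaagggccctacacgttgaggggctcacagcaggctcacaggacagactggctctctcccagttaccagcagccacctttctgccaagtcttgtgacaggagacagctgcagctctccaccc
In the shown bases Cox6a1 and Sdhd held both motifs, and Ndufaf4 and Atp5k an NRF-1 match that reads the same on both strands. The whole window of Atp5k also held a GABP match outside the shown bases, and the whole windows of Cox7a1 and Cox8b held neither motif. The windows of Atp5pb, Ndufaf7, Ndufc2 and Cox7a2l, which also changed with injury, held neither motif. Of the broad or single complex IV forms, Cox5a, Cox5b, Cox7a2, Cox7b and Ndufa4 held neither, and Cox6b1 held a GABP match. The shown genes therefore do not stand for the injury-changed or the broad forms. The G and C content of the shown stretch was 66% for Cox6a1 and 74% for Ndufaf4, and 52% for Cox7a1 and 55.3% for Cox8b.

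The share of probes above background was 32.4% to 41.5% per array. Mean raw intensity was 508 to 527 on the bleomycin lung arrays, 363 to 390 on the healthy lung arrays and 267 to 424 on the UUO-mouse lung arrays. The 2 arrays of UUO-mouse lung 2 were at 333 and 424. The healthy kidney arrays were at 402 to 417 and the UUO kidney arrays at 449 and 374. Quantile normalisation sets all these gaps to 0. Some samples held transcripts that do not belong to the labelled organ or group. The summed normalised intensity of 7 liver markers reached 78965 in healthy lung 3 and 27168 in UUO-mouse lung 1, against group medians of 4152 and 1147. Red cell markers summed to 1875 to 3267 in the bleomycin lungs and 87482 to 88788 in the healthy lungs. The surfactant gene Sftpc stood at 9.06 and 7.58 in the UUO kidneys and at 4.36 to 4.55 in the healthy kidneys (log2 normalised intensity). Umod, a marker of the loop of Henle, stood at 9.03 in bleomycin lung 1 and at 4.43 to 5.62 in the other bleomycin and healthy lungs. Xist was at 10.40 to 11.66 in the lungs and kidneys of UUO mice, at 8.86 in bleomycin lung 3 and at 4.31 to 5.50 in the other samples, so that sex as read from these genes differed between the UUO and the healthy groups. The part of these differences in the results below was not tested, except where a value without the sample is given. All comparisons with healthy lung share those 3 samples.

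Healthy kidney carried more respiratory chain RNA than healthy lung in every complex. Of the 85 genes, 77 were higher in kidney and 4 lower at an adjusted p under 0.05, where 29.8% of all genes tested were higher, 36.8% lower and 66.6% called either way. The median log2 difference was 1.11 over the respiratory chain genes and -0.14 over all genes tested. Per kidney, the median against the healthy lungs was 1.08, 1.16 and 1.04. In bulk tissue, fewer cells of a type and less RNA per cell cannot be told apart.

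**Figure D1:**
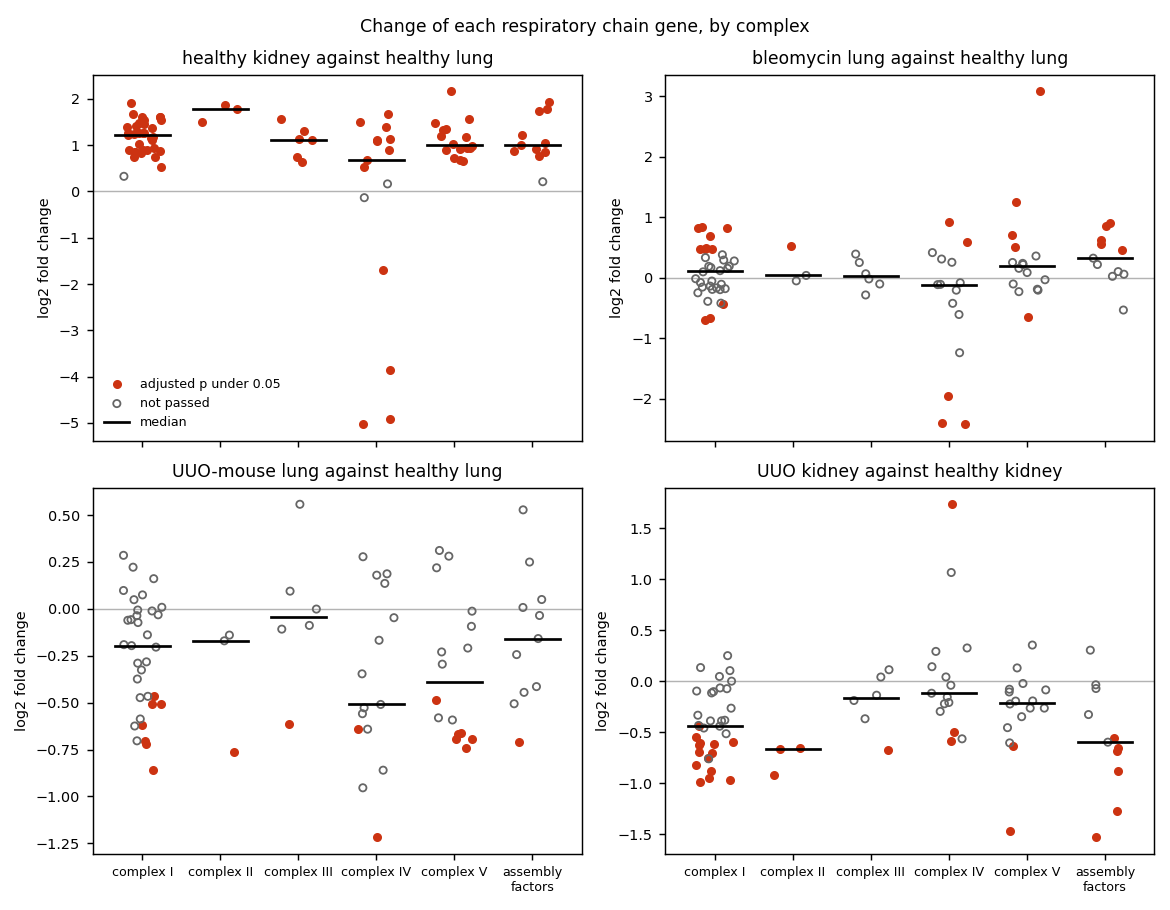
Log2 fold change of each of the 85 respiratory chain genes in 4 comparisons (y axis), grouped by complex (x axis); each point is a gene, filled where its adjusted p was under 0.05, and the bar is the median of the complex. In healthy kidney against healthy lung all medians lie above 0, from 0.68 in complex IV to 1.77 in complex II, and the low points are complex IV isoforms. Fold values of Atp5k in lung and Cox4i2 in kidney are against signal at background.

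Complex II stood furthest apart, with all 3 measured subunits higher in kidney and a median of 1.77. Sdhb, the iron-sulfur subunit, was at 9.62, 10.02 and 9.72 in the healthy lungs and at 11.60, 11.59 and 11.75 in the healthy kidneys (log2 normalised intensity). The groups were well apart, and the difference was 1.86 ± 0.20 (SE, adjusted p = 4.18e-06). Sdhc and Sdhd, which anchor the complex in the membrane, were higher by 1.77 ± 0.15 and 1.51 ± 0.21.

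In complex I, 33 of 34 genes were higher in kidney, all 5 measured core subunits among them, and the median was 1.23. Ndufb5, Ndufb6 and Ndufa10, accessory subunits, led with 1.92 ± 0.22, 1.67 ± 0.20 and 1.62 ± 0.16. The accessory subunit Ndufa7 differed by 0.33 and did not pass. All 6 complex III genes were higher, with a median of 1.12. Uqcrc1, a core protein, was at 10.71, 11.08 and 10.72 in lung and at 12.45, 12.40 and 12.34 in kidney, a difference of 1.56 ± 0.17 (adjusted p = 5.51e-06).

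All 16 complex V genes were higher in kidney, with a median of 1.00. Atp5pb, subunit b of the peripheral stalk, was at 9.68, 9.67 and 9.79 in lung and at 11.95, 11.96 and 11.73 in kidney. No lung sample came near a kidney sample, and the difference was 2.17 ± 0.19 (adjusted p = 6.21e-07). Atp5a1 and Atp5d, of the catalytic head and its central stalk, were higher by 1.57 ± 0.25 and 1.48 ± 0.14. The c subunit genes Atp5g2 and Atp5g3 were higher by 0.65 ± 0.15 and 0.95 ± 0.13. Of the assembly factors, 10 of 11 were higher, led by Ndufaf4, Ndufaf7 and Ndufaf8, which help to build complex I, at 1.94 ± 0.17, 1.78 ± 0.16 and 1.74 ± 0.18.

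Complex IV was divided, with 9 genes higher and 4 lower in kidney. All 4 lower genes were tissue forms: Cox4i2, Cox6a2, Cox8b and Cox6b2. Among the 9 broadly expressed or single forms, 8 were higher, with a median of 1.11. Cox7a2, the broad partner of Cox7a1, was higher by 1.68 ± 0.23, Cox7b by 1.5 ± 0.25, Cox6a1 by 1.40 ± 0.17 and Ndufa4, now placed in this complex, by 1.13 ± 0.15. Cox6b1 and Cox4i1 were higher by 0.89 ± 0.13 and 0.68 ± 0.19. Cox7a2l, which joins complexes III and IV into supercomplexes, was higher by 0.52 ± 0.18, and this call was lost without healthy lung 1 or 2 or healthy kidney 2 or 3 (adjusted p up to 0.103).

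Cox4i2 is the lung form of subunit 4, known from airway and vascular smooth muscle and pericytes. It was at 9.69, 9.15 and 9.56 in healthy lung, at 7.23, 6.84 and 7.16 in bleomycin lung and at 8.14, 8.15 and 8.45 in UUO-mouse lung. The 3 lung groups did not overlap, and the order was healthy, UUO-mouse, bleomycin. In kidney it was at background in all 5 samples, so healthy lung was at least 13.4-fold higher than healthy kidney (adjusted p = 4.47e-10). Against healthy lung it fell by 2.39 ± 0.18 on the log2 scale in bleomycin lung (adjusted p = 4.54e-06) and by 1.22 ± 0.18 in UUO-mouse lung (adjusted p = 0.00383). Bleomycin lung also lay below UUO-mouse lung, by -1.17 ± 0.18 (adjusted p = 0.000228), but this call was lost with each array scaled to its median (-0.40, adjusted p = 0.119) and in the authors' matrix values (-0.38, adjusted p = 0.152).

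Among 7 measured mural cell markers, genes of pericytes and vascular muscle, Notch3, Higd1b and Cspg4 fell in bleomycin lung by 0.94, 0.76 and 0.56 on the log2 scale and Kcnj8 rose by 0.84. Pdgfrb, Abcc9 and Rgs5 did not pass. With 3 of 7 lower and 1 higher, 21.8% of all genes tested fell and 21.3% rose there. The list summed to between 1516 and 1917 in the healthy, 993 and 1273 in the bleomycin and 1597 and 1753 in the UUO-mouse lungs (normalised intensity). The defining marker Rgs5 was near background in all lungs, at 4.84, 5.88 and 5.11 in the healthy, 4.89, 4.79 and 4.78 in the bleomycin and 4.48, 5.02 and 4.57 in the UUO-mouse lungs. The part of mural cells in the Cox4i2 difference was not tested.

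The heart and skeletal muscle forms Cox6a2, Cox7a1 and Cox8b varied widely among the healthy lungs. Cox6a2 was at 11.93, 12.66 and 9.46 in healthy lungs 1, 2 and 3, at 9.82, 9.98 and 10.54 in bleomycin lung and at 10.98, 9.80 and 10.69 in UUO-mouse lung. Cox7a1 was at 10.62, 11.59 and 7.81 in healthy lung, at 7.36, 7.21 and 8.21 in bleomycin lung and at 9.15, 9.27 and 8.74 in UUO-mouse lung. Healthy lung 2 was the highest and healthy lung 3 the lowest of the healthy lungs for both. Cox8b was at 9.91, 11.19 and 8.02 in healthy lung, at 7.45, 7.32 and 8.47 in bleomycin lung and at 9.03, 9.90 and 8.27 in UUO-mouse lung.

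Cardiac muscle transcripts followed the same order in the healthy lungs. In the bleomycin lungs Cox7a1 and Cox8b followed the order of the cardiac median and Cox6a2 did not, and in the UUO-mouse lungs Cox6a2 followed it and Cox7a1 and Cox8b did not. The median of 11 cardiac markers was 11.10, 12.20 and 5.30 in healthy lungs 1, 2 and 3, 8.68, 8.23 and 9.98 in bleomycin lungs 1, 2 and 3 and 9.77, 6.29 and 9.19 in UUO-mouse lungs 1, 2 and 3 (log2 normalised intensity), and their summed intensity ranged from 1255 to 67100. It ranged from 4999 to 13318 in bleomycin lung, from 1608 to 15933 in UUO-mouse lung and from 378 to 597 in the kidneys, where 10 of the 11 markers were at background in healthy kidney. Skeletal muscle markers summed to between 415 and 31173 in the healthy, 690 and 1256 in the bleomycin and 611 and 1818 in the UUO-mouse lungs. The part of attached heart or other muscle in these isoform values was not tested.

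**Figure D2:**
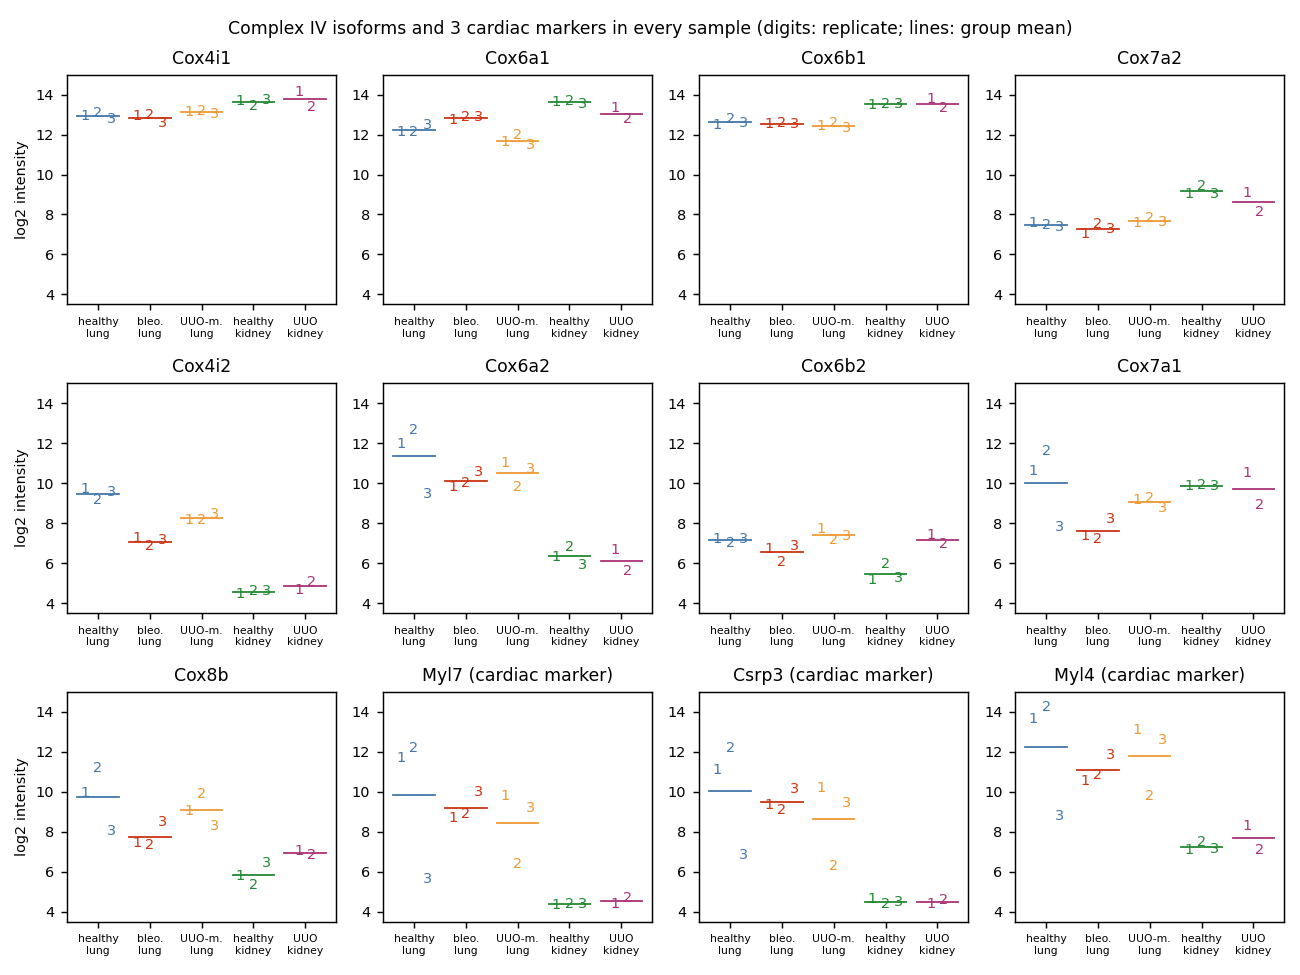
Log2 normalised intensity (y axis) of 5 tissue forms of complex IV subunits, 4 of their broadly expressed partners (top row) and the 3 cardiac markers Myl7, Csrp3 and Myl4 in every sample of the 5 groups (x axis; bleo., bleomycin; UUO-m., UUO-mouse); digits are replicate numbers and lines group means. Cox4i2 separates the 3 lung groups on this quantile-normalised scale, though the bleomycin and UUO-mouse lungs did not differ at the threshold with median scaling, while Cox6a2, Cox7a1, Cox8b and the cardiac markers are all highest in healthy lung 2 and lowest in healthy lung 3 among the healthy lungs.

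In kidney, Cox6a2 was at 6.28, 6.81 and 5.89 and lay below healthy lung by -5.02 ± 0.65 (adjusted p = 2.34e-05). Cox8b lay below by -3.86 ± 0.66 (adjusted p = 0.000239), with 1 of 3 healthy kidneys above background. Cox7a1 did not differ beyond its spread between the organs, at 9.85, 9.91 and 9.85 in healthy kidney (difference -0.13 ± 0.74, adjusted p = 0.882). The testis form Cox6b2 was at 7.20, 7.03 and 7.20 in healthy lung and at 5.13, 5.96 and 5.23 in healthy kidney, a difference of -1.71 ± 0.26 (adjusted p = 8.34e-05).

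In bleomycin lung, a subset of respiratory chain genes rose and 3 of the 5 tissue forms of complex IV fell, Cox4i2, Cox7a1 and Cox8b. Of the 85 genes, 20 rose and 7 fell, where 21.3% of all genes tested rose, 21.8% fell and 43.1% were called either way, so the share that rose, 23.5%, was near the background. The median log2 change was 0.10, beside -0.04 over all genes. It was 0.33 for the assembly factors, 0.19 for complex V, 0.11 for complex I and -0.11 for complex IV. With each array scaled to its median, 32 rose and 2 fell, and in the authors' matrix values 62 rose and 1 fell, while the median of all genes moved to 0.23 and 0.51.

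The largest rise was that of Atp5k, subunit e of the ATP synthase, which lies where synthase dimers meet. It was at 7.63, 9.02 and 7.15 in bleomycin lung and at background in all healthy lungs (4.92, 4.94 and 4.69) and all UUO-mouse lungs (4.39, 5.15 and 4.72). Bleomycin lung was therefore at least 6.36-fold higher than healthy lung (adjusted p = 0.000126). Only 1 probe of Atp5k passed the detection rule, above background in 7 of 14 samples, so no other probe could be set beside this rise. Atp5l, subunit g of the same region, was at 12.63, 12.75 and 12.53 in healthy lung and at 13.32, 13.44 and 13.27 in bleomycin lung and rose by 0.71 ± 0.14 (adjusted p = 0.00193).

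Atp5pb rose by 1.25 ± 0.19 (adjusted p = 0.000266), from 9.68, 9.67 and 9.79 to 10.76, 11.02 and 11.12, and its 3 other probes above background changed by 0.25, 1.14 and 0.92. Atp5g2 fell by 0.65 ± 0.15 (adjusted p = 0.00443), whereas its c subunit partner Atp5g3 changed by -0.10 ± 0.13 and did not pass. None of the 5 genes of the F1 head and central stalk passed, and their changes lay between -0.20 and 0.26.

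In complex I, 8 genes rose and 3 fell. Ndufa11, Ndufb6 and Ndufs4, accessory subunits, rose by 0.85 ± 0.15, 0.82 ± 0.20 and 0.82 ± 0.16 (adjusted p = 0.000729, 0.00564 and 0.00141). Ndufs4 was at 10.46, 10.58 and 10.40 in healthy lung and at 11.19, 11.35 and 11.36 in bleomycin lung, with no overlap. The second probe of Ndufb6 changed the other way, by -0.30, and the other probes of Ndufs4 changed by 0.25, 0.11 and 0.58. Ndufs5-ps fell by 0.69 ± 0.15, Ndufb10 by 0.66 ± 0.25 and the core subunit Ndufs7 by 0.43 ± 0.14, but these calls did not hold under every alternative. Those of Ndufb10 and Ndufs7 were lost without healthy lung 1 or 2 or bleomycin lung 1 or 2 (Ndufb10 also without bleomycin lung 3), and those of all 3 with median scaling (Ndufs5-ps down to -0.11 in the authors' matrix values). None of the other 4 measured core subunits passed.

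In complex II, Sdhb rose by 0.54 ± 0.20 (adjusted p = 0.0455), a call lost without healthy lung 1 or 3 or any bleomycin lung, while Sdhc and Sdhd changed by -0.05 ± 0.15 and 0.04 ± 0.21 and did not pass. None of the 6 complex III genes passed, and 1 of them had an unadjusted p under 0.05. Of the assembly factors, 5 of 11 rose and none fell. Ndufaf4 was at 9.19, 9.35 and 9.21 in healthy lung and at 9.92, 10.55 and 10 in bleomycin lung and rose by 0.91 ± 0.17 (adjusted p = 0.00139), but its second probe changed by -0.65. Ndufaf7, a methyltransferase needed to build complex I, rose by 0.85 ± 0.16 and Ndufaf2 by 0.63 ± 0.17.

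In complex IV, Cox7a2l was at 10.14, 10.04 and 10.71 in healthy lung and at 11.15, 11.18 and 11.35 in bleomycin lung and rose by 0.93 ± 0.18 (adjusted p = 0.00155). Cox6a1, the broad form of subunit 6A, was at 12.11, 12.10 and 12.45 and then at 12.71, 12.86 and 12.88 and rose by 0.60 ± 0.17 (adjusted p = 0.0138). This call was lost without healthy lung 1 or 2 (adjusted p up to 0.0528). Cox4i1, Cox6b1, Cox7a2, Cox7b and Ndufa4 changed by -0.11, -0.08, -0.20, 0.42 and -0.11 and did not pass.

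Cox7a1 fell by 2.41 ± 0.74 (adjusted p = 0.0192) and Cox8b by 1.96 ± 0.66 (adjusted p = 0.0311), and both calls were lost without healthy lung 1 or 2 or bleomycin lung 1 or 2 (adjusted p up to 0.0806 and 0.129). The healthy and bleomycin samples overlapped for both genes, through healthy lung 3. Cox6a2 and Cox6b2 changed by -1.24 ± 0.65 and -0.60 ± 0.26 and did not pass. The count that fell dropped from 7 to 3 without healthy lung 1 or 2 or bleomycin lung 1 or 2. Without healthy lung 3, 15 rose and 9 fell, and the median change was 0.04.

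Markers of other cells moved in the same lungs. Of the marker lists, macrophage genes rose for 5 of 6, red cell genes fell for 6 of 6, endothelial genes for 5 of 8, fat genes for 2 of 3, surfactant cell genes for 2 of 8, and liver and motile cilia genes for 1 of 7 each. Of all genes tested 21.3% rose and 21.8% fell there, so the surfactant, liver and motile cilia counts are near or below the background. No proximal tubule, loop and distal tubule, cardiac or skeletal muscle marker passed. The summed intensity of the macrophage list lay between 1387 and 1605 in the healthy and between 4505 and 5722 in the bleomycin lungs, and that of the endothelial list between 20928 and 23169 and between 13598 and 14214. Their part in the changes of the respiratory chain genes was not tested.

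**Figure D3:**
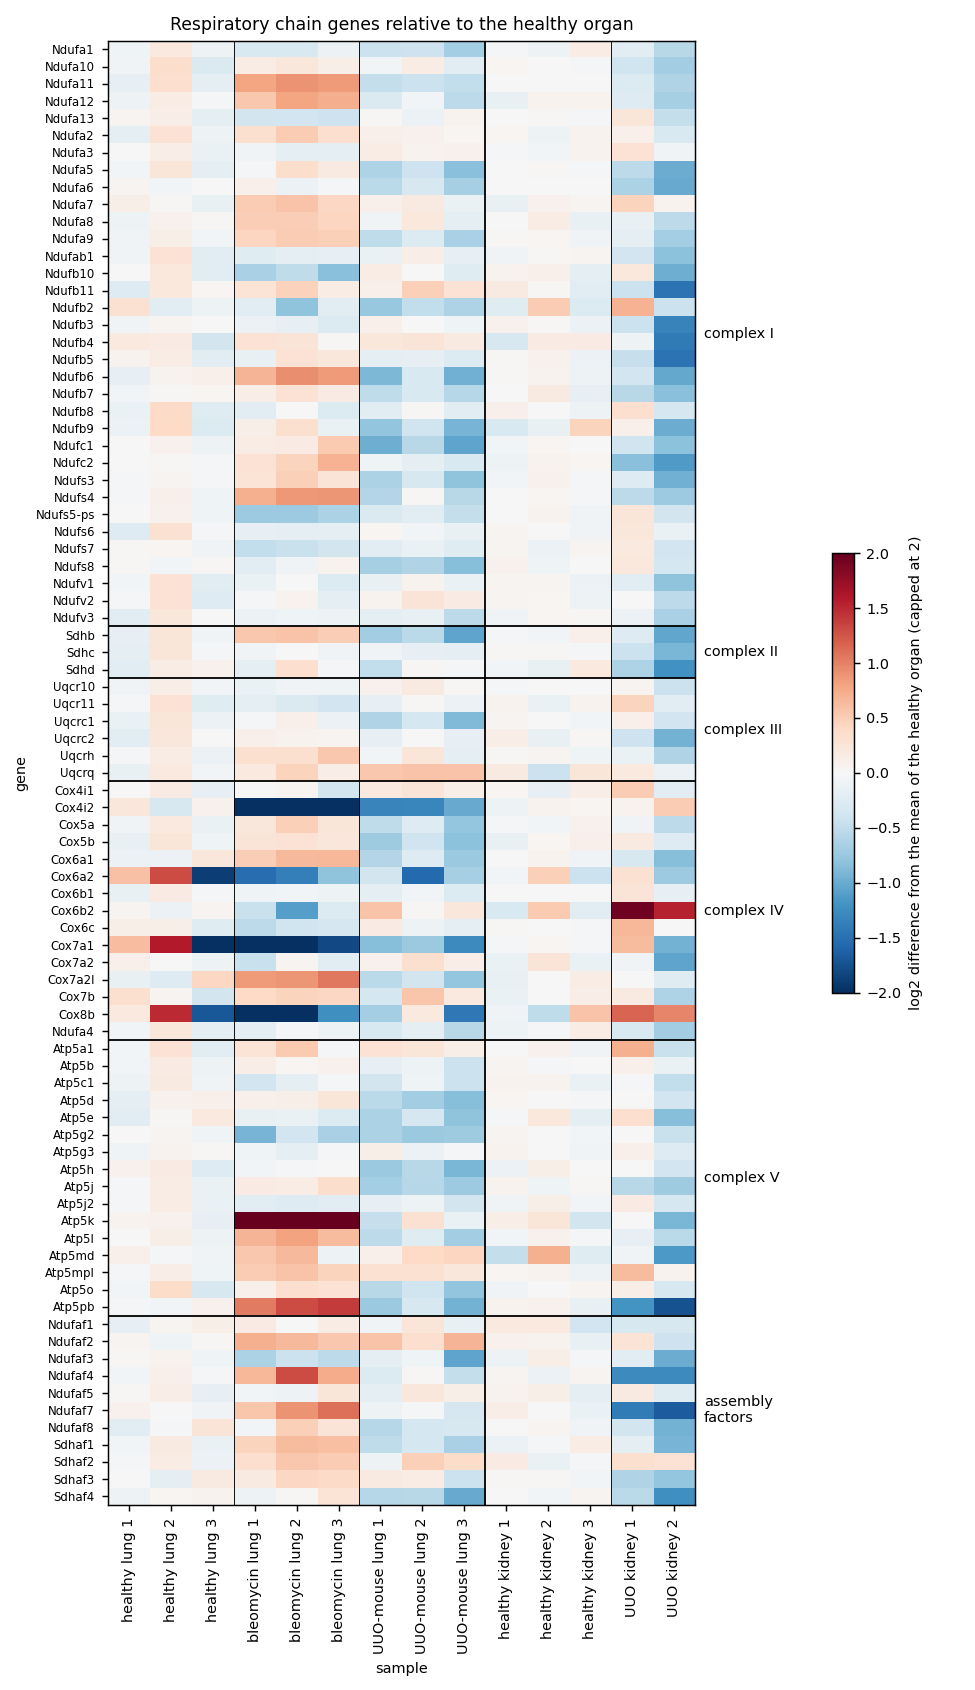
Difference of each of the 85 genes (rows, by complex) in each of the 14 samples (columns) from the mean of the healthy organ, in log2 units; red is higher, blue lower, and colours are capped at 2. Cox4i2, Cox7a1 and Cox8b are blue and Atp5k and Atp5pb red in the 3 bleomycin lungs, and UUO kidney 2 is blue over most rows.

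In the lungs of UUO mice no respiratory chain gene rose and 18 of 85 fell, where 5.89% of all genes tested rose, 5.08% fell and 11% were called either way. The median log2 change was -0.21, beside 0.05 over all genes. By complex it was -0.51 in complex IV, -0.39 in V, -0.20 in I, -0.17 in II, -0.04 in III and -0.16 for the assembly factors. Per sample, the median difference from healthy lung was -0.22, -0.10 and -0.36 in UUO-mouse lungs 1, 2 and 3.

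Complex V held 6 of the 18 genes that fell. Atp5h, a peripheral stalk subunit, was at 10.60, 10.69 and 10.27 in healthy lung and at 9.77, 9.96 and 9.60 in UUO-mouse lung and fell by 0.74 ± 0.15 (adjusted p = 0.0128). Atp5d fell by 0.69 ± 0.14 and Atp5g2 by 0.69 ± 0.15 (adjusted p = 0.0118 and 0.0164), and Atp5g3 changed by -0.01 ± 0.13. In complex I, 7 genes fell, led by Ndufc1, at 11.10, 11.17 and 10.98 in healthy lung and 10.11, 10.53 and 10.03 in UUO-mouse lung (-0.86 ± 0.17, adjusted p = 0.0107). Ndufb6 and the core subunit Ndufs8 fell by 0.72 ± 0.20 and 0.71 ± 0.15.

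Of the other complexes, Sdhb fell by 0.76 ± 0.20 (adjusted p = 0.0322), Sdhaf4, an assembly factor of complex II, by 0.71 ± 0.19, Uqcrc1 by 0.61 ± 0.17 and Cox5b by 0.64 ± 0.16, besides Cox4i2. The broad forms Cox6a1 and Cox7a2l changed by -0.53 ± 0.17 and -0.56 ± 0.18 and did not pass (adjusted p = 0.0676 and 0.0679). Cox4i1, Cox6a2, Cox6b1, Cox6b2, Cox7a1, Cox7a2, Cox7b, Cox8b, Ndufa4, Sdhc and Sdhd did not pass either, with changes from -0.95 to 0.28.

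The count of 18 rested on single samples. It was 2 without UUO-mouse lung 3, 7 without lung 1 and 22 without lung 2, and 4, 7 and 9 without healthy lung 1, 2 and 3. With both lungs that hold liver transcripts left out, it was 5, of which 3 were among the 18. Of the 11 named genes that fell, only Cox4i2 kept its call under every alternative tried (adjusted p up to 0.0299). The 2 arrays of UUO-mouse lung 2, averaged here, correlated at r = 0.971 across genes, with 5 of the 85 genes over 2-fold apart, and with the first array alone 5 genes fell.

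Among markers in these lungs, macrophage genes rose for 3 of 6 and fell for 1, endothelial genes fell for 2 of 8, and cardiac and surfactant cell genes fell for 1 of 11 and 1 of 8. No marker of the other lists passed. Of all genes tested 5.89% rose and 5.08% fell there. Their part in the changes was not tested.

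The kidneys of UUO mice had lower levels of many complex I and II genes and assembly factors. Of the 85 genes, 28 fell and 1 rose, where 17% of all genes tested fell, 26.0% rose and 43.0% were called either way. The median log2 change was -0.33, beside 0.11 over all genes. With each array scaled to its median, 9 fell and 2 rose, and in the authors' matrix values 62 fell and 1 rose. The kidneys differed from each other, with a median of -0.03 in UUO kidney 1 and -0.60 in UUO kidney 2, and 39 and 6 of the 85 genes above the healthy mean.

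**Figure D4:**
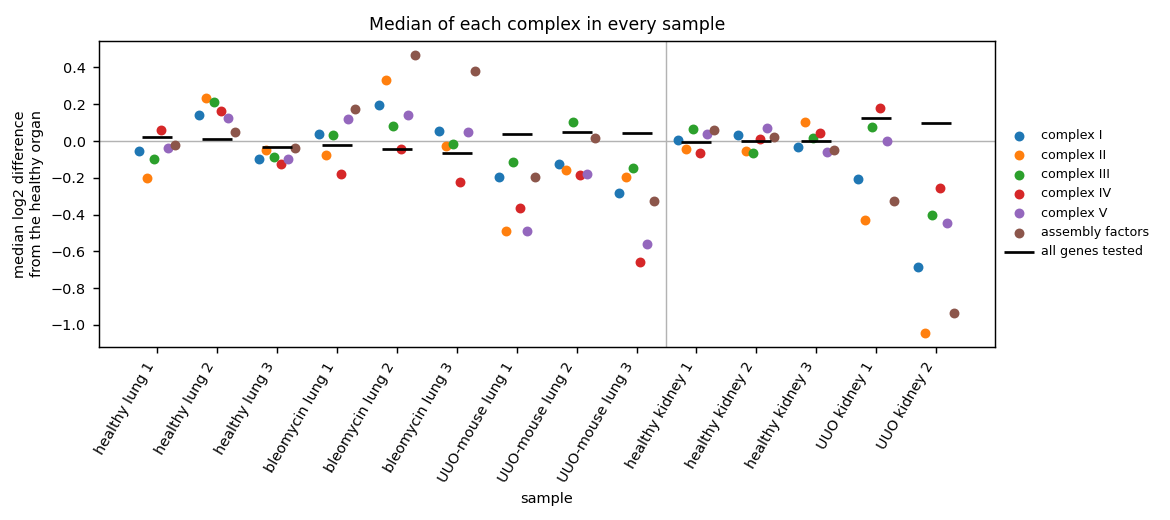
Median over the genes of each complex (coloured points) and over all genes tested (black bars) of the log2 difference from the mean of the healthy organ (y axis) in each sample (x axis). UUO kidney 2 lies below UUO kidney 1 in every complex, with complex II at -1.04 and -0.43, and in the bleomycin lungs the assembly factors are at 0.18, 0.47 and 0.38.

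All 3 complex II genes fell. Sdhd was at 8.46, 8.37 and 8.71 in healthy kidney and at 7.89 and 7.30 in UUO kidney and fell by 0.92 ± 0.23 (adjusted p = 0.00653). Sdhc fell by 0.67 ± 0.16 and Sdhb by 0.65 ± 0.22 (adjusted p = 0.00607 and 0.0322). For each of them both UUO kidneys lay below all 3 healthy kidneys. Without UUO kidney 2 none of the 3 calls held (adjusted p = 0.0918 for Sdhd, 0.0823 for Sdhc and 0.401 for Sdhb), and that of Sdhb was also lost without any one healthy kidney.

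In complex I, 14 of 34 genes fell, 13 of them accessory subunits and 1 of them among the 5 core subunits. Ndufc2 was at 11.81, 11.98 and 11.94 in healthy kidney and at 11.08 and 10.78 in UUO kidney and fell by 0.98 ± 0.15 (adjusted p = 0.000249). Ndufb5 fell by 0.97 ± 0.25 and Ndufb11 by 0.95 ± 0.27, the latter with 1 of 2 UUO kidneys above background. Of the assembly factors, 6 of 11 fell. Ndufaf7 was at 8.75, 8.62 and 8.47 and then at 7.21 and 6.95 and fell by 1.53 ± 0.17 (adjusted p = 3.19e-05). Ndufaf4 was at 11.25, 11.08 and 11.24 and then at 9.93 and 9.92 and fell by 1.27 ± 0.19 (adjusted p = 0.000277), and its second probe changed by -1.09. Sdhaf4 fell by 0.88 ± 0.21.

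Complexes III, IV and V had fewer calls, 1 of 6, 2 of 15 and 2 of 16 genes that fell. Uqcrc2, a core protein of complex III, fell by 0.67 ± 0.18. Atp5pb was at 11.95, 11.96 and 11.73 in healthy kidney and at 10.69 and 10.14 in UUO kidney and fell by 1.47 ± 0.21 (adjusted p = 0.000155), and its 3 other probes changed by -1.05, -1.97 and -0.49. Atp5j, also of the peripheral stalk, fell by 0.63 ± 0.13. None of the 5 F1 genes passed, with changes from -0.26 to 0.13, and Atp5g2 and Atp5g3 changed by -0.22 ± 0.17 and -0.08 ± 0.14. Cox6a1 fell by 0.58 ± 0.19 and Ndufa4 by 0.50 ± 0.17 (adjusted p = 0.0268 and 0.0344).

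Cox6b2, the testis form of subunit 6B, was the gene that rose. It was at 5.13, 5.96 and 5.23 in healthy kidney, with 1 of 3 samples above background, and at 7.38 and 6.97 in UUO kidney, a rise of 1.74 ± 0.29 (adjusted p = 0.000481). Its broad partner Cox6b1 changed by 0.04 ± 0.15. Cox8b changed by 1.07 ± 0.74, Cox6a2 by -0.21 ± 0.73, Cox7a1 by -0.15 ± 0.82, Cox4i1 by 0.14 ± 0.21, Cox7a2 by -0.56 ± 0.25, Cox7a2l by -0.12 ± 0.20 and Cox7b by -0.22 ± 0.28, and none of them passed.

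Without UUO kidney 1, 45 genes fell, and without UUO kidney 2, 8 fell and 4 rose. Atp5pb, Atp5j, Ndufaf4, Ndufaf7, Ndufc2 and Cox6b2 were the 6 of 15 named genes whose calls held under every alternative tried. Markers of the proximal tubule fell for 7 of 11 in the same kidneys, where 17% of all genes tested fell. Their summed intensity was 110528 to 110889 in healthy kidney, 62473 in UUO kidney 1 and 34245 in UUO kidney 2. The transporter Slc22a6, a defining marker, was at 13.29, 13.18 and 13.07 and then at 10.50 and 9.46, lower in UUO kidney 2. Kap, of the same list, was at 13.83, 14.04 and 14.25 and then at 11.07 and 11.57, lower in UUO kidney 1. Xist was at 4.45, 4.39 and 4.70 in the healthy and at 10.68 and 10.40 in the UUO kidneys, so sex as read from it differed as well. The part of sex in the levels of Slc22a6, Kap and the other markers was not tested. No loop and distal tubule, cardiac, skeletal muscle or fat marker passed.

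Macrophage genes rose for 6 of 6, endothelial genes rose for 3 and fell for 1 of 8, and mural cell genes rose for 2 and fell for 2 of 7. Surfactant cell genes rose for 3 of 8, motile cilia genes for 3 of 7, and red cell and liver genes fell for 4 of 6 and 1 of 7. Of all genes tested 26.0% rose and 17% fell there, so several of these counts are near the background. The part of the number of tubule cells and of these other cells in the falls was not tested.

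Bleomycin lung lay above UUO-mouse lung for many of these genes. Of the 85, 33 were higher and 2 lower, where 22.3% of all genes tested were higher, 27.8% lower and 50.1% called either way. The median log2 difference was 0.23, beside -0.09 over all genes. In complex I, 15 genes were higher and none lower, in complex V 7 and none, and among the assembly factors 5 and none. The 2 lower genes were Cox4i2 and Cox6b2 (-0.88 ± 0.26, adjusted p = 0.0129), and the latter call was lost without UUO-mouse lung 1 or bleomycin lung 2.

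Atp5k was at least 5.53-fold higher in bleomycin lung than in UUO-mouse lung (adjusted p = 6.71e-05). Atp5pb was higher by 1.92 ± 0.19 and Atp5l by 1.20 ± 0.14. Ndufb6, Ndufa11 and Ndufs4 were higher by 1.54 ± 0.20, 1.31 ± 0.15 and 1.19 ± 0.16, and the other probes of Ndufs4 differed by 0.35, -0.01 and 0.94. Sdhb was at 10.33, 10.35 and 10.28 in bleomycin lung and at 9.10, 9.25 and 8.73 in UUO-mouse lung, higher by 1.30 ± 0.20 (adjusted p = 0.000226). Cox7a2l, Cox6a1 and Cox5b were higher by 1.49 ± 0.18, 1.13 ± 0.17 and 0.90 ± 0.16, Ndufaf4, Sdhaf1 and Ndufaf7 by 1.15 ± 0.17, 1.06 ± 0.18 and 1.01 ± 0.16, and Uqcrc1 by 0.60 ± 0.17. The second probe of Ndufaf4 differed by -0.32, and the Ndufaf4 call was lost with the mean of all probes (adjusted p = 0.0523). Atp5g2, Atp5g3, Cox4i1, Cox6a2, Cox6b1, Cox7a1, Cox7a2, Cox7b, Cox8b, Ndufa4, Sdhc and Sdhd did not pass, with differences from -1.46 to 0.28. With each array scaled to its median, 65 of the 85 were higher and none lower, and the median of all genes moved to 0.49.

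The change in injured lung was set against the change in injured kidney by the difference of the bleomycin effect and the UUO effect. For 33 of the 85 genes the lung change was the higher and for 5 the lower, where 17.9% of all genes tested were higher, 27% lower and 44.9% called either way. The median difference was 0.39, beside -0.17 over all genes. In the authors' matrix values 73 were higher and 2 lower. Bleomycin and obstruction differ in agent as well as organ. Sex, as read from Xist, also differed between the UUO and healthy kidneys, and between bleomycin lung 3 and the healthy lungs. Agent, organ and sex cannot be told apart here.

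Atp5pb, which rose in lung and fell in kidney, differed by 2.72 ± 0.28 (adjusted p = 2.11e-05). Ndufaf7 and Ndufaf4 likewise differed by 2.38 ± 0.23 and 2.18 ± 0.26 (adjusted p = 1.6e-05 and 6.1e-05). The second probe of Ndufaf4, however, changed by -0.65 in bleomycin lung and -1.09 in UUO kidney, a difference of 0.44. In complex I, Ndufb6, Ndufc2 and Ndufs4 differed by 1.53 ± 0.30, 1.46 ± 0.20 and 1.44 ± 0.24. The other probes of Ndufs4 differed by 0.11, -0.18 and 0.57, and its call was lost with the mean of all probes (adjusted p = 0.0862). All 3 complex II genes differed, Sdhb by 1.19 ± 0.30, Sdhd by 0.96 ± 0.31 and Sdhc by 0.62 ± 0.22. The Sdhb call held under every alternative, while that of Sdhd was lost in 6 of 26 (adjusted p up to 0.117), among them without UUO kidney 2, healthy lung 1, bleomycin lung 2 or healthy kidney 3. That of Sdhc was lost in 12 of 26 (adjusted p up to 0.173), among them without UUO kidney 2 or any one sample of healthy kidney, bleomycin lung or healthy lungs 1 and 3. Cox6a1 and Cox7a2l differed by 1.18 ± 0.26 and 1.05 ± 0.27, Atp5l by 1.06 ± 0.21, Sdhaf1, which helps to mature Sdhb, by 1.11 ± 0.27, and Uqcrh and Uqcrc2 by 0.76 ± 0.23 and 0.74 ± 0.24. The Uqcrh and Uqcrc2 calls were lost without UUO kidney 2, and that of Uqcrc2 also without healthy lung 1 or healthy kidney 1 (adjusted p up to 0.0917 and 0.111). The value for Atp5k, 3.54 ± 0.61, rests on healthy lungs at background.

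Cox4i2, Cox6b2 and Cox8b differed the other way, by -2.68 ± 0.27, -2.34 ± 0.39 and -3.03 ± 0.99, and Cox4i2 was at background in all kidneys. The Cox8b call was lost in 9 of 26 alternatives (adjusted p up to 0.0969), among them without healthy lung 1, bleomycin lung 1 or 2, healthy kidney 2 or either UUO kidney. Ndufs5-ps differed by -0.63 ± 0.23 (adjusted p = 0.0384), a call lost in 13 of 26 alternatives, and Cox6c, named after its value was seen, by -0.75. The difference did not pass for Atp5g2, Atp5g3, Cox4i1, Cox6a2, Cox6b1, Cox7a1, Cox7a2, Cox7b and Ndufa4. Without UUO kidney 2, 20 genes were higher and 10 lower, and without UUO kidney 1, healthy lung 1 or bleomycin lung 1, 2 were lower.

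**Figure D5:**
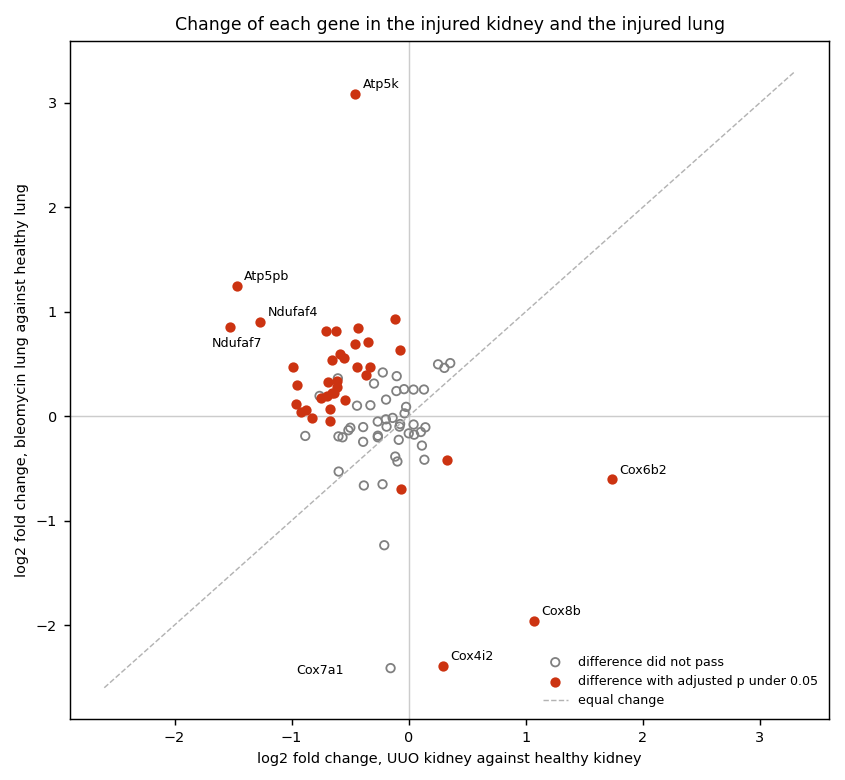
Log2 fold change of each of the 85 genes in UUO kidney against healthy kidney (x axis) and in bleomycin lung against healthy lung (y axis); filled points are genes whose 2 changes differed at an adjusted p under 0.05, and the dashed line marks equal change. Atp5pb, Ndufaf7 and Ndufaf4 lie at the upper left, higher in lung and lower in kidney, and Cox6b2, Cox8b and Cox4i2 at the lower right.

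The genes with an NRF-1 or GABP match in the promoter window, 35 of the 73 matched, had a median change of 0.19 in bleomycin lung, -0.46 in UUO-mouse lung and -0.43 in UUO kidney. The 38 without a match had medians of -0.08, -0.20 and -0.34. These are descriptions with no test.

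Other mitochondrial genes were counted in lists by function, and some of the genes named from them were picked after their values were seen. In UUO kidney, 10 of 13 genes of the electron carriers and Cyc1 fell, as did 13 of 27 assembly factors outside the prefixes (1 rose), 9 of 17 regulators of mitochondrial biogenesis (1 rose), 25 of 72 mitochondrial ribosome genes (4 rose), 7 of 19 carriers and pores and 3 of 14 citric acid cycle genes. Of all genes tested 17% fell and 26.0% rose there. The median changes of the lists were -0.67, -0.51, -0.62, -0.33, -0.36 and -0.50. Cytochrome c, Cycs, fell by 1.36 ± 0.21 (adjusted p = 0.000271), Coq9, needed for ubiquinone synthesis, by 1.47 ± 0.25, and Etfa and Etfdh, which bring in electrons from fatty acid oxidation, by 1.20 ± 0.17 and 1.16 ± 0.22. Acad9, known both as an assembly factor of complex I and as an acyl-CoA dehydrogenase, fell by 2.52 ± 0.20 (adjusted p = 2.69e-06).

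In bleomycin lung, the same lists gave 1 rise and 3 falls of 13 carriers of electrons, 8 rises and 3 falls of 27 other assembly factors, 20 rises and 4 falls of 72 ribosome genes, 8 rises and 1 fall of 19 carriers and pores, 2 rises and 3 falls of 14 citric acid cycle genes and 1 rise and 4 falls of 17 biogenesis regulators. Of all genes tested 21.3% rose and 21.8% fell there, so several of these counts are near the background. The copper chaperone genes Sco1 and Cox11, which serve complex IV, rose by 0.97 ± 0.19 and 0.88 ± 0.30 (adjusted p = 0.00142 and 0.0302), and Coa7 fell by 1.14 ± 0.14. In UUO-mouse lung the counts were 0 rises and 2 falls, 1 and 1, 2 and 8, 0 and 3, 0 and 1, and 2 and 0, in the same order, where 5.89% of all genes tested rose and 5.08% fell. Cyc1, a catalytic subunit of complex III, fell there by 0.85 ± 0.16 (adjusted p = 0.0101).

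Of the 17 biogenesis regulators, 4 fell in bleomycin lung, a share near the 21.8% of all genes tested that fell there, and 9 fell in UUO kidney. Ppargc1a, encoding PGC-1α, fell by 0.98 ± 0.36 in bleomycin lung (adjusted p = 0.0424) and by 1.45 ± 0.40 in UUO kidney (adjusted p = 0.011). Ppargc1b fell by 1.5 ± 0.28 and 0.90 ± 0.32, and Esrra, their partner receptor ERRα, by 0.87 ± 0.21 and 0.81 ± 0.24. Ppara, a receptor for fatty acids, fell in UUO kidney by 2.35 ± 0.27 (adjusted p = 3.37e-05) and changed by -0.10 ± 0.24 in bleomycin lung. Nrf1, which encodes NRF-1, changed by 0.05 ± 0.16 and 0.25 ± 0.18 in these organs and did not pass, and rose by 0.65 ± 0.16 in UUO-mouse lung.

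Of the mitochondrially encoded genes, 7 had a measured probe. In UUO kidney 3 of the 7 fell, where 17% of all genes tested fell. They were the complex I core subunits ND4L by 3.05 ± 0.23, ND5 by 2.02 ± 0.47 and ND4 by 0.36 ± 0.12 (adjusted p = 2.16e-06, 0.00411 and 0.0341). The median change of the 7 was -0.24, beside 0.11 over all genes. Each gene was read from 1 probe, and how well these probes read their transcripts was not tested. ND5 rose in bleomycin lung by 1.45 ± 0.42 and in UUO-mouse lung by 1.61 ± 0.42 (adjusted p = 0.0142 and 0.0321), and ATP6 fell in bleomycin lung by 0.39 ± 0.15. In bleomycin lung 1 of the 7 thus rose and 1 fell, below the 21.3% and 21.8% of all genes tested. In UUO-mouse lung 1 of the 7 rose, where 5.89% of all genes tested rose.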

How the data were processed

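The deposited files hold raw probe intensity with a detection p-value per probe and array from GenomeStudio 5.0, per the submitters' processing notes, and a matrix of values, for which no label or header says how it was made. Groups follow titles and sources; 1 healthy kidney is called lung in its tissue field and was kept as kidney. With limma 3.58.1 in R 4.3.3, the 15 arrays were background-corrected by normexp from the detection p (offset 16), quantile-normalised and taken to log2, and the 2 arrays of 1 UUO-mouse lung were averaged, leaving 14 samples. Of 45281 probes, 34885 have 1 gene symbol, 18 several and 10378 none; 21048 passed the detection rule, 18022 of them with 1 gene. Each of the 11648 genes was read from its brightest probe on average. One fit of 5 group means (9 residual and 3.10 prior degrees of freedom) gave each contrast with Benjamini-Hochberg adjustment over all genes at 0.05; values after ± are standard errors. The number of arrays limits the precision.

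A group was at background for a gene where no sample had a detection p-value under 0.01, and "at least" folds are then against the lowest signal above background. Members and lists were chosen with earlier results of these data known. Named are, per comparison and complex, up to 3 genes with the largest rise and 3 with the largest fall that passed, plus the complex IV isoforms, c subunit genes and complex II; where fewer than 5 passed, the 5 smallest p. From other mitochondrial lists up to 2 genes in each direction are named by adjusted p. Cox8a, Ndufa4l2 and Atp5g1 were not analysed here. Probes of genes with processed pseudogenes, as for Ndufs5-ps, are uncertain. Replicate numbers do not name mice: organs of the same mouse deviated together at r = -0.12 to 0.19 over 4 pairs, so the fit has no block. The fit was tested on simulated data. Alternatives changed the background correction, normalisation, filter, probe choice, variance model, samples and blocking.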

Additional observations from a re-analysis of the deposited data

Results flagged for a closer look

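For 33 of the 85 respiratory chain genes the effect of bleomycin in lung was higher than that of UUO in kidney, and for 5 it was lower, each by a test of the difference in the same fit at an adjusted p under 0.05. Among the named genes the difference was 2.72 for Atp5pb, 2.38 for Ndufaf7, 2.18 for Ndufaf4, 1.53 for Ndufb6, 1.46 for Ndufc2, 1.44 for Ndufs4, 1.19 for Sdhb, 1.18 for Cox6a1 and 1.11 for Sdhaf1 (log2). It was 1.06 for Atp5l, 1.05 for Cox7a2l, 0.96 for Sdhd, 0.76 for Uqcrh, 0.74 for Uqcrc2 and 0.62 for Sdhc. On the other side it was -0.63 for Ndufs5-ps, -2.34 for Cox6b2 and -3.03 for Cox8b. The fitted values of 3.54 for Atp5k and -2.68 for Cox4i2 are not exact, since Atp5k was at background in all healthy lungs and Cox4i2 in all kidneys. The calls of Sdhc, Sdhd, Cox8b, Ndufs4 and Ndufs5-ps were among those lost under some alternatives, and the second probe of Ndufaf4 differed by 0.44. No group held enough samples for a test of single outlying samples.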

How the results depend on the processing

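In kidney against lung, 27 of 28 named calls held under every alternative, against 9 of 19 in bleomycin lung, 1 of 11 in UUO-mouse lung, 6 of 15 in UUO kidney, 12 of 16 in bleomycin against UUO-mouse lung and 13 of 20 for the difference of effects. The cause of the changes listed here was not tested, and signal near background limits Atp5k, Cox4i2, Cox6b2 and Cox8b.

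Scaling each array to its median gave 32 rises, 2 falls and a median of 0.45 in bleomycin lung, 29 falls and -0.57 in UUO-mouse lung, 2 rises and 9 falls in UUO kidney, 65 higher, 0 lower and 0.95 between bleomycin and UUO-mouse lung, and 3 lower and 0.67 for the difference of effects. It moved the median of all genes to 0.23, -0.25, 0.33, 0.49 and -0.11. The authors' matrix values gave 62 rises, 1 fall and 0.69 in bleomycin lung, 29 falls in UUO-mouse lung, 62 falls and -0.82 in UUO kidney, 73 higher, 0 lower and 0.99 between the lungs, 1.81 between the organs, and 73 higher, 2 lower and 1.49 for the difference, with all genes at 0.51, -0.11, -0.21, 0.63, 0.32 and 0.73. Centred, as added after seeing the data, they gave 9 falls in UUO-mouse lung, 61 and -0.79 in UUO kidney, 1.67 between the organs, and 52 higher, 3 lower and 0.94 for the difference.

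Array weights gave 11 falls in bleomycin lung, 2 rises and 33 falls in UUO-mouse lung, 16 falls in UUO kidney and 8 lower between the lungs. Fitting only the groups compared gave 1 rise and 8 falls in UUO-mouse lung, 2 rises and 15 falls in UUO kidney and 6 lower between the lungs. With the first duplicate array alone there were 1 rise and 5 falls in UUO-mouse lung, 6 lower between the lungs and 3 lower for the difference. An intensity trend gave 5 and no background correction 4 lower between the lungs. Without the lungs with liver transcripts 5 genes fell in UUO-mouse lung.

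The replicate number as a block gave 9 falls in UUO-mouse lung and moved no other count of calls by over 1.5 times.

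Leaving out 1 sample at a time gave 14 to 20 rises, 3 to 9 falls and medians of 0.04 to 0.18 in bleomycin lung, 2 to 22 falls and -0.29 to -0.14 in UUO-mouse lung, and 1 to 4 rises, 8 to 45 falls and -0.60 to -0.031 in UUO kidney, where the lone sample left is assumed to vary like the other groups. It gave 29 to 35 higher, 1 to 2 lower and 0.20 to 0.31 between the lungs, 74 to 77 higher, 4 to 5 lower and 1.07 to 1.19 between the organs, and 20 to 39 higher, 2 to 10 lower and 0.16 to 0.67 for the difference.

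The sign turned in the authors' matrix values for Atp5g3 (0.49), Cox4i1 (0.50), Cox6b1 (0.54), Ndufa4 (0.52), Ndufs7 (0.14) and Sdhc (0.50) in bleomycin lung, for Cox6b1 in UUO kidney (-0.52, and -0.49 centred), and for Atp5g3 (1.06), Cox4i1 (0.97), Cox6b1 (1.05) and Ndufs5-ps (0.44) in the difference. Between the lungs Atp5g3 turned to 0.59 with median scaling and 0.54 in the matrix.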
